A study of Mus musculus with 8 samples.

Results

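The matrix metalloproteinases, the ADAM and ADAMTS proteinases and the tissue inhibitors of metalloproteinases (TIMPs) were described here by their transcription start sites in mouse facial skin. The 50 genes were taken by symbol, as every gene of the deposited CAGE catalogue whose name begins with Mmp, Timp, Adam or Adamts followed by a digit, out of 16094 symbols in all. CAGE sequences the capped 5′ ends of RNA, so that a tag cluster, a run of neighbouring 5′ ends, marks where transcripts begin. The 50 genes had 107 of the 84475 clusters: 35 in 18 Mmp genes, 28 in 11 Adam genes, 34 in 17 Adamts genes and 10 in 4 Timp genes. The samples were 4 of lesional facial skin, from C57BL/6 mice at postnatal day 28 that were Cre-positive and carried floxed Ikk2, and 4 of non-lesional facial skin, from C57BL/6 mice of the same age whose genotype is given only as control. Ikk2 is the kinase, encoded by Ikbkb, that activates NF-κB; the driver of the Cre is written Nestin in the series text and Nectin in the sample labels, and which skin cells it acts in is not given. In this design the lesion cannot be told apart from the genotype.

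The 8 columns of values in the catalogue carry names that match no sample label, so they were not used. No level of any gene and no difference between lesional and control skin is reported. What can be described is where the start sites of these genes lie, how many there are and how wide they are, in a catalogue shared by all samples. A cluster does not tell which of the groups it came from, and the depth of the libraries was not analysed here. The labelled tissue was checked against 36 markers of 10 cell types found in facial skin. Over all protein-coding genes 63.3% had a cluster, and 33 of the 36 markers did. These included all 4 keratinocyte markers (Krt14, Krt5, Krt1 and Krt10), all 5 fibroblast markers and all 4 markers each of macrophages (Adgre1 under its older name Emr1) and skeletal muscle. Ly6g and Mpo of neutrophils and Trac of T cells had none under those names among the clusters analysed here.

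Matrix metalloproteinases are zinc enzymes that cut collagens, elastin, basement membrane and other proteins outside the cell, and in skin they act in wound repair, hair cycling and inflammation. ADAM proteinases sit in the cell membrane and shed the outer parts of growth factors, cytokines and receptors, whereas ADAMTS proteinases are secreted and process procollagens and proteoglycans. TIMPs bind the active sites of these enzymes and block them. Several secreted metalloproteinase genes lie side by side in the genome and are known to be induced through the transcription factor AP-1, which binds near a TATA box in their promoters.

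The Mmp genes on chromosome 9 form a row of secreted enzymes, and most of them had 1 narrow cluster. Clusters as narrow also occurred outside the row, in Adam11 (2 bp), Adamts8 (4 bp) and Adamts4 (9 bp). A cluster of few tags can be narrow at any promoter, and whether depth set these spans was not tested. Of the 10 Mmp genes that RefSeq places on this chromosome, 8 had a cluster, beside 63.3% of all protein-coding genes. Each of the 8 had exactly 1 cluster, and all were on the plus strand, in the order Mmp13, Mmp12, Mmp3, Mmp1a, Mmp10, Mmp8, Mmp27 and Mmp20. From the first to the last they spread over 355.7 kb (mm9), and no other cluster of any kind lay between them. The neighbours nearest to each other were Mmp8 and Mmp27, 13.0 kb apart, and those farthest apart were Mmp12 and Mmp3, at 98.4 kb. The median span of the 8 clusters, the distance from deposited start to deposited end, was 12.5 bp. The 10 Mmp genes on other chromosomes had 27 clusters, and the median of their widest clusters was 106 bp.

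The 100 bases before the RefSeq start of these genes are shown because a TATA box is known from promoters with sharply placed starts. Sequences are from RefSeq, build GRCm38.p6, given 5′ to 3′ on the strand of the gene. TATAA, the core of a TATA box, and TGANTCA, the AP-1 element with any base allowed in the middle, are in capitals.
Mmp13 (chr9:7272414-7272513, plus strand): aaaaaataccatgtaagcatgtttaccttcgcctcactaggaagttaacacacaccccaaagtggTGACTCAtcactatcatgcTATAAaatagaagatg
Mmp12, the first start (chr9:7344297-7344396, plus strand): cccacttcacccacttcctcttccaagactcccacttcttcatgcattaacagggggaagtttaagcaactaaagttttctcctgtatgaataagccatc
Mmp12, the second start (chr9:7347274-7347373, plus strand): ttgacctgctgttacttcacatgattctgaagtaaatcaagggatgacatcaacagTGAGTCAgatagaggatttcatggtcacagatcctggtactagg
Mmp3 (chr9:7445722-7445821, plus strand): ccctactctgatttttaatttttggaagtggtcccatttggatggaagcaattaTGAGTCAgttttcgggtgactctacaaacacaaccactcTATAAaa
Mmp1a (chr9:7464041-7464140, plus strand): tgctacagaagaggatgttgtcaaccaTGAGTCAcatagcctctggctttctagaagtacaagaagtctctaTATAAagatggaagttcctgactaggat
Mmp10 (chr9:7502242-7502341, plus strand): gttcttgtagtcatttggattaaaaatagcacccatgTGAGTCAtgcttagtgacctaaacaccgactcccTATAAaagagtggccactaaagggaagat
Mmp8 (chr9:7558329-7558428, plus strand): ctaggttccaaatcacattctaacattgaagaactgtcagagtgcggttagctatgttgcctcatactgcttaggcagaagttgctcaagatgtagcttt
Mmp27 (chr9:7571296-7571395, plus strand): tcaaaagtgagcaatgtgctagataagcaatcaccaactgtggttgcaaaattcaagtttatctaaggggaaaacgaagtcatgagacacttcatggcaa
Mmp20 (chr9:7628131-7628230, plus strand): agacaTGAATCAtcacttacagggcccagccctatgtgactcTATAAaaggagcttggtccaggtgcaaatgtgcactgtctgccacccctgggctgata

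The letters TATAA, searched on the strand of the gene in the 100 bases before the start, were found in 5 of the 8 genes: Mmp13, Mmp3, Mmp1a, Mmp10 and Mmp20. TGANTCA, which reads the same on both strands, was found within 250 bases before a start in the same 5 genes and in Mmp12. Where both were present, TGANTCA lay upstream of TATAA in all 5 genes and the motifs never overlapped. Positions are counted back from the base at which the RefSeq transcript starts. In Mmp1a TGANTCA began at position -73 and TATAA at -28, and in Mmp10 they began at -63 and -29. In Mmp13 they began at -35 and -16, in Mmp3 at -46 and -7 and in Mmp20 at -95 and -58. This match in Mmp20 was TGAATCA, whereas the AP-1 element is usually given with G or C in the middle. A TATA box is known to act about as far from the start as in Mmp1a and Mmp10. The letters in the other 3 genes lie nearer to or farther from the RefSeq start than is usual. Their distance from the mm9 clusters was not measured, so this need not hold for the starts used in these samples. Mmp8 and Mmp27 had neither within these windows. Among 32851 RefSeq promoters of the same length, counted per promoter, 7.48% held TATAA in that window, 6.75% held TGANTCA and 0.791% held both. Counted per gene, as for the 8 genes, these shares were 6.23%, 6.32% and 0.810% of the 10376 genes with a cluster and a promoter sequence. Counting TATAA on either strand gave 10.2% of all promoters, and still 5 of the 8 genes. These matches describe letters only and do not show that a factor was bound.

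**Figure D1:**
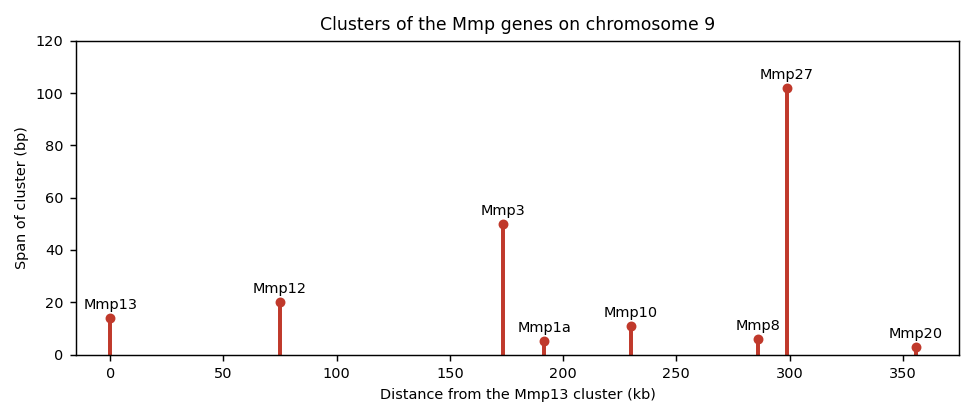
Span in bp of the single CAGE cluster of each Mmp gene on chromosome 9 (vertical axis) against its distance in kb from the Mmp13 cluster (horizontal axis). Bars start at 0; the Mmp27 cluster spans 102 bp and the Mmp3 cluster 50 bp, and the other 6 span 20 bp or less.

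The collagenases cut fibrillar collagen, and each of the 3 with a cluster had a narrow one. Mmp13 had a cluster of 14 bp (chromosome 9, 7272523 to 7272537, mm9, coordinates as deposited). Mmp8, the collagenase stored by neutrophils, had one of 6 bp (7558454 to 7558460), and Mmp1a had one of 5 bp (7464139 to 7464144). Mmp1b, a near copy of Mmp1a, had no cluster under its name among those analysed here. Reads can be shared between the copies, so the Mmp1a cluster is uncertain in its origin. All 3 spanned 14 bp or less, against a median widest cluster of 110 bp over all 16094 genes.

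The gelatinases, which cut denatured collagen and basement membrane, differed from each other. Mmp2 had 3 clusters on the plus strand of chromosome 8, the widest of 165 bp (95351192 to 95351357) followed downstream by clusters of 7 and 11 bp. Mmp9 had only 1, of 30 bp, on chromosome 2 and also on the plus strand (164773723 to 164773753). Mmp2 is made by fibroblasts without stimulus, whereas Mmp9 is known as an inducible gene of leukocytes and keratinocytes.

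The stromelysins Mmp3 and Mmp10, which cut proteoglycans and activate other proteinases, had single clusters of 50 bp (7445808 to 7445858) and 11 bp (7502335 to 7502346) on chromosome 9. Mmp11, a stromelysin of stromal cells that lies on chromosome 10, had a cluster of 91 bp on the minus strand. Mmp12, the macrophage elastase, had a cluster of 20 bp (7347392 to 7347412). Mmp20, known as an enzyme of tooth enamel, had a single cluster of 3 bp, the smallest widest span of any Mmp gene. Mmp27 had one of 102 bp (7571436 to 7571538), so that the locus held both narrow and wide clusters. Mmp19 on chromosome 10 had a cluster of 71 bp, and Mmp28, an enzyme made by keratinocytes, had one of 105 bp on chromosome 11. Mmp7 and Mmp21 had no cluster under those names among those analysed here.

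The 5 metalloproteinases anchored to the membrane had 20 clusters, of which 11 belonged to Mmp14, and Mmp17 and Mmp23 had 1 each. Mmp14, the main activator of Mmp2 at the cell surface, lies on the plus strand of chromosome 14 and had the most clusters of any member, and 500 of the 16094 genes had more. Its clusters lay within 1021 bp, and 4 of them spanned 10 bp or more: the widest of 107 bp (55050436 to 55050543) and others of 95, 20 and 84 bp downstream of it. The cluster of 84 bp began 804 bp after the 5′ end of the widest one. Mmp16 had 4 clusters, the widest of 133 bp with one of 35 bp upstream and one of 34 bp downstream, and Mmp15 had 3, the widest of 140 bp. The Mmp23 cluster spanned 204 bp, the widest of all Mmp clusters. The Mmp17 cluster spanned 63 bp (chromosome 5, 130090042 to 130090105) and had also been given by the authors to AC114657.1, the only member cluster shared with another gene. Mmp24 and Mmp25 had no cluster under those names.

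The base content of the promoter was set beside the span of the start sites. The observed number of CpG dinucleotides over that expected from the C and G content was computed for the 300 bases of each RefSeq promoter, and averaged over the starts of a gene. A value was available for 33 of the 50 members, among them 13 of the 18 Mmp genes. Mmp2, Mmp9, Mmp16, Mmp17 and Mmp19 had none. The ratio lay between 0 and 0.27 in the 8 Mmp genes on chromosome 9, with a median of 0.111. The median was 0.712 in the other 25 members and 0.729 over the 10376 genes with both a cluster and a promoter sequence. In the promoters of Mmp1a and Mmp20 the ratio was 0. Across the 33 members the ratio and the widest span had a Spearman correlation of 0.673. It was 0.366 in the 25 members outside the chromosome 9 genes and 0.222 across all 10376 genes. These are descriptions across genes that share the same libraries and differ in base composition, and the Mmp genes on chromosome 9 carry much of the value among the members.

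**Figure D2:**
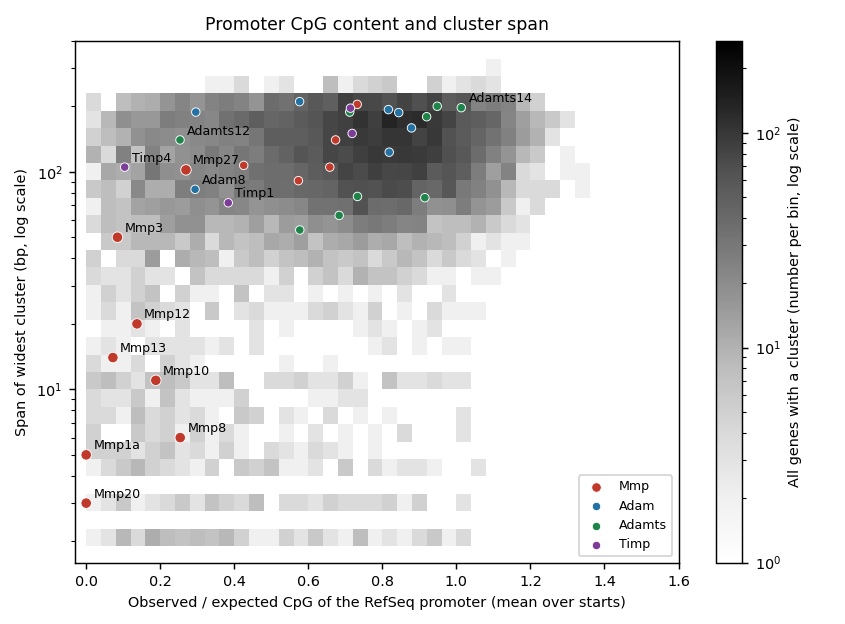
Span of the widest cluster of each gene in bp (vertical axis, log scale) against the observed over expected CpG ratio of its RefSeq promoter (horizontal axis), with 33 members as coloured points and 10376 genes as grey bins. The Mmp genes on chromosome 9 lie at ratios up to 0.27, and 6 of the 8 span 20 bp or less; Timp4 has a low ratio of 0.104 with a span of 105 bp.

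Low CpG content was not always joined to a narrow cluster. Timp4, with a ratio of 0.104, had a cluster of 105 bp, and Adamts12, with 0.253, had one of 140 bp. Neither did TATAA always go with one: Timp3 held it at position -44 and had a cluster of 196 bp. Adamts1 held TATAA at -32 and had a cluster of 54 bp. Over all genes, TATAA was found in 20.2% of 585 genes whose widest cluster spanned under 10 bp and in 4.12% of 6307 genes with a cluster of at least 100 bp. Among the members with a promoter sequence these numbers were 2 of 3 and 1 of 19. The 3 were Mmp1a, Mmp8 and Mmp20, all of the chromosome 9 row, out of 6 members with so narrow a widest cluster, and the 19 were out of 25. The flanks of Adam17, Adamts1, Timp3 and Timp4 are shown for contrast with the Mmp genes above, with the same motifs in capitals.
Adam17 (chr12:21373633-21373732, minus strand): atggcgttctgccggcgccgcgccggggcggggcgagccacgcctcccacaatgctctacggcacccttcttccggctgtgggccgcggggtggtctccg
Adamts1 (chr16:85803114-85803213, minus strand): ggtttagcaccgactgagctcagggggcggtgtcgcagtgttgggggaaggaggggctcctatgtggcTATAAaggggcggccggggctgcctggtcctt
Timp3 (chr10:86300312-86300411, plus strand): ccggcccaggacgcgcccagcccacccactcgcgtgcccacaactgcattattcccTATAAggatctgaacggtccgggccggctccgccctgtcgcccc
Timp4 (chr6:115252206-115252305, minus strand): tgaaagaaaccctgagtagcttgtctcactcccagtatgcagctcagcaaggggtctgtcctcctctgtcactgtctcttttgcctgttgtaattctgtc

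The Adam genes were grouped by tissue of known use. RefSeq lists 34 protein-coding Adam genes in the mouse. Of these, 22 are known mainly from testis or epididymis, among them the sperm surface genes Adam2 and Adam3, and none of the 22 had a cluster. Of the other 12, 11 had a cluster. Adam28 was the one without, and as it is known from lymphocytes and epididymis it could have been placed with the 22. The grouping was made after the catalogue had been seen, so the split between the groups is a description and was not tested. Over all 80 members of these families in RefSeq, 50 had a cluster (62.5%), close to the 63.3% of all 21896 protein-coding genes. By family the shares were 18 of 23 for Mmp, 17 of 19 for Adamts and 4 of 4 for Timp. Adamts13, the enzyme that cuts von Willebrand factor and is made in the liver, and Adamts16 were the Adamts genes without a cluster.

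Of the 8 somatic ADAM genes with a cluster, most of them sheddases, the widest cluster spanned at least 100 bp in 6 (75%), against 56.0% of all genes. Adam17, which releases TNF and ligands of the EGF receptor, had 1 cluster of 193 bp on the minus strand of chromosome 12 (21379323 to 21379516). Adam10, which sheds Notch receptors and cadherins, had 6 clusters on the plus strand of chromosome 9. The widest spanned 187 bp (70526731 to 70526918), and the other 5 were of 2 to 4 bp and lay at its edges, within 236 bp in all. Adam9 had 4 clusters, of which the widest spanned 198 bp. Adam12 had 5, and 2 of them were wide: one of 212 bp, the widest of any member, and one of 134 bp whose 5′ end lay 315 bp upstream. Adam19 had 1 cluster of 188 bp, Adam33 one of 70 bp and Adam8, known from leukocytes, one of 83 bp.

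Adam15 was the only member with neighbouring clusters at least 1000 bp apart. Its widest cluster, of 123 bp, lay on the minus strand of chromosome 3 (89153832 to 89153955), and a cluster of 2 bp lay 1281 bp downstream (89152549 to 89152551). Over all genes, 15.5% had neighbouring clusters at least this far apart. Whether the downstream cluster is a promoter of its own was not tested. The 3 ADAM genes that lack the catalytic site and are known mainly from neurons also had clusters, beside 63.3% of all protein-coding genes. Adam22 had one of 210 bp, Adam23 had 3 of which the wider were 159 and 83 bp, and Adam11 had a single cluster of 2 bp.

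All 7 proteoglycan-cleaving Adamts genes had a cluster, beside 63.3% of all protein-coding genes. Adamts1 had 1 of 54 bp on the minus strand of chromosome 16 (85803311 to 85803365), with 2 further clusters on its strand, of 2 and 69 bp, that carry no gene name and begin 1213 and 1369 bp upstream. Adamts5, the main aggrecanase of mouse cartilage, lies beside it, 98.1 kb away on the same strand, and had 4 clusters, of 51, 177, 3 and 21 bp, over 1204 bp. Adamts4 had a single cluster of 9 bp on chromosome 1 (173180549 to 173180558) and Adamts8 one of 4 bp. Adamts9 had 4, of which 3 spanned 63, 50 and 57 bp. Adamts15 had clusters of 74 and 154 bp, and Adamts20, known for its part in pigment cell development, had one of 179 bp. Adamts15 and Adamts8 stood head to head on chromosome 9, on opposite strands with 5′ ends 19.8 kb apart and no other cluster between them.

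The 3 procollagen N-proteinases, which trim the amino end of fibrillar procollagens, all had a cluster, beside 63.3% of all protein-coding genes. Adamts2 had 1 cluster of 200 bp, the widest of the Adamts genes. Adamts14 had 3, the widest of 197 bp, and Adamts3 had clusters of 76 and 45 bp. Of the remaining Adamts genes, Adamts12 had a cluster of 140 bp, Adamts18 one of 188 bp, Adamts17 one of 77 bp and Adamts7 one of 54 bp. Adamts6 and Adamts10, which act on fibrillin microfibrils, had 3 clusters each, the widest of 91 and 88 bp. Adamts19 had 4, the widest of 68 bp.

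Each of the 4 inhibitors had a cluster, beside 63.3% of all protein-coding genes. The narrowest of their widest clusters was 72 bp. Timp1, the TIMP known as inducible, had, on chromosome X and its plus strand, a cluster of 72 bp (20447345 to 20447417) and one of 4 bp beginning 737 bp after it. Timp2, which also takes part in the activation of Mmp2 by Mmp14, had a cluster of 150 bp on the minus strand of chromosome 11 (118216550 to 118216700) and one of 3 bp beside it. Timp3, which binds to the matrix and inhibits Adam17, had 5 clusters on the plus strand of chromosome 10. The widest spanned 196 bp (85763186 to 85763382), and the other 4, of 2 to 7 bp, lay 379 to 608 bp downstream of its 5′ end. Timp4 had 1 cluster of 105 bp on the minus strand of chromosome 6 (115201831 to 115201936). No Timp gene had more than 1 cluster of at least 10 bp. Of the 17 Adamts genes 7 did (41.2%), near the 33.7% of all genes.

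**Figure D3:**
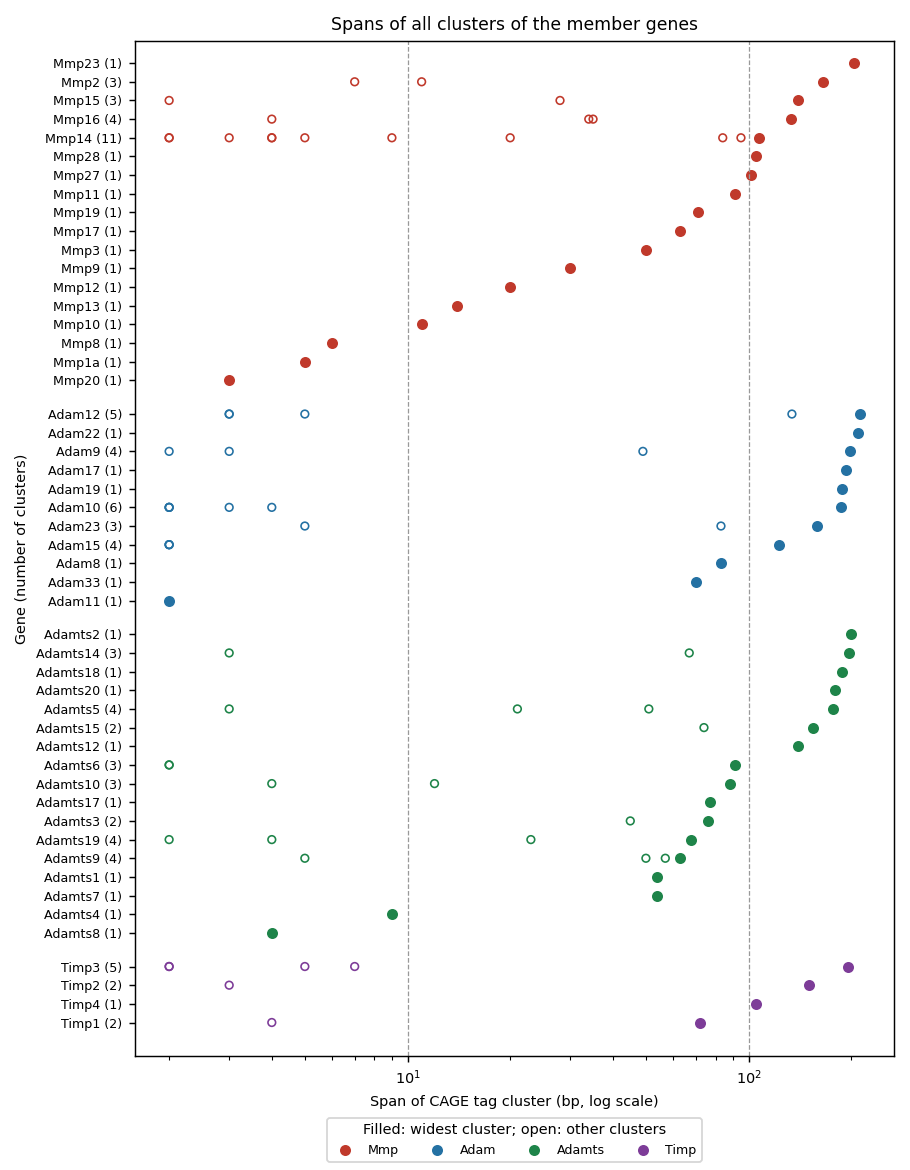
Span in bp of each of the 107 clusters (horizontal axis, log scale) by gene, with the number of clusters in parentheses; filled points are the widest cluster of a gene, open points the others, and dashed lines mark 10 and 100 bp. The widest clusters of 6 genes lie under 10 bp (Mmp20, Mmp1a, Mmp8, Adam11, Adamts4 and Adamts8), and those of 25 genes at 100 bp or more.

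The number of clusters per member was compared with that of all genes in the catalogue. A single cluster was found for 30 of the 50 members (60%), against 45.7% of all genes, and the median was 1 against 2. The widest cluster had a median span of 96.5 bp among the members, with quartiles of 56.25 and 174 bp, and of 110 bp over all genes, with quartiles of 67 and 159 bp. By family this median was 67 bp for Mmp, 187 bp for Adam, 88 bp for Adamts and 127.5 bp for Timp. The 20 genes with several clusters had 57 beside the widest. Of these, 27 (47.4%) lay within 100 bp of the widest cluster, against 28.5% over all genes, and 29 lay upstream and 28 downstream, against 39.7% upstream over all genes. Spans under 10 bp made up 38 of the 57 (66.7%), against 68.7% over all genes. No test was made of these shares, since genes are not replicates.

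**Figure D4:**
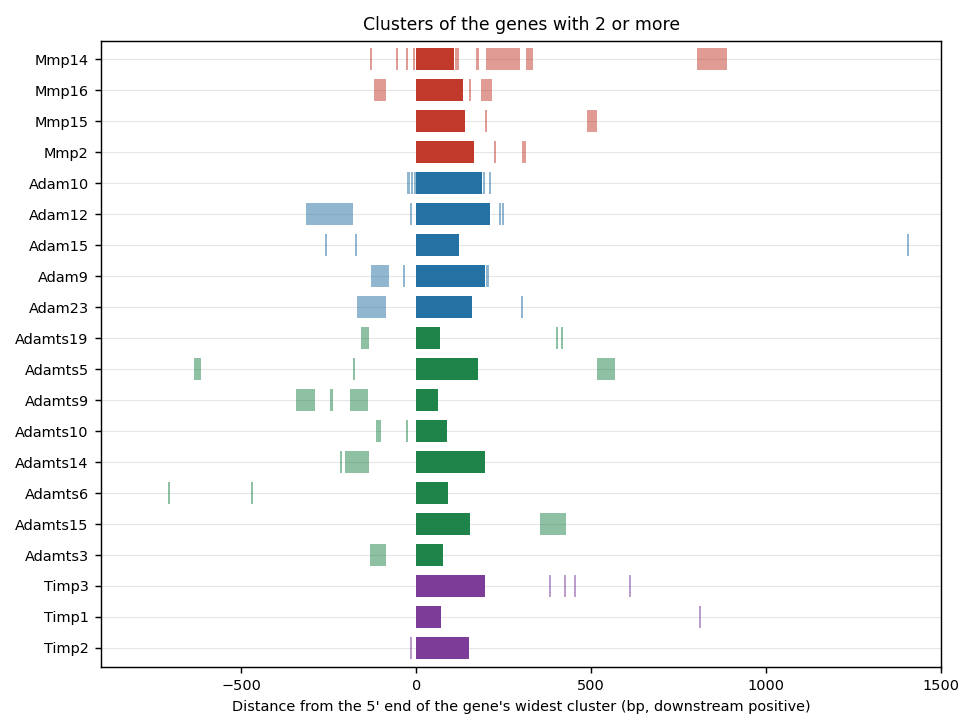
Clusters of the 20 member genes with 2 or more, drawn to scale along the distance in bp from the 5′ end of the widest cluster (dark), downstream to the right; clusters under 6 bp are drawn 6 bp wide so that they can be seen. Clusters lie on both sides of the widest in Mmp14, Mmp16 and Adam10, only downstream in Timp3, Mmp2 and Mmp15, and only upstream in Adamts6 and Adamts9.

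Start sites of other transcripts near the members were counted next. In 36 of the 50 (72%) no cluster of another gene or without a gene began within 5000 bp of the 5′ end of the widest cluster, against 49.9% of all genes. By family these were 15 of 18 Mmp, 6 of 11 Adam, 12 of 17 Adamts and 3 of 4 Timp genes. A cluster on the opposite strand within 1000 bp upstream, the arrangement of a divergent promoter, was found for 4 of the 50 (8.0%), against 24.3% of all genes. All 4 were Adam genes. For Adam15, Adam17 and Adam8 the opposite cluster carried no gene name, and the 5′ ends were 22, 35 and 75 bp apart. For Adam9 it belonged to Tm2d2, 250 bp away. Mmp14 had 2 clusters of the opposite strand without a name, of 68 and 41 bp, that began 787 and 909 bp downstream of its widest start. In Adamts9, 2 clusters of the opposite strand belonged to 9530026P05Rik and began 2640 and 2812 bp downstream.

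The other genes of the pathway were read from a list of 35 activators, inhibitors, matrix cathepsins and ADAMTS-like genes. Of these, 29 had a cluster, beside 63.3% of all protein-coding genes. The 29 had a median of 2 clusters and a median widest span of 120 bp, against 2 clusters and 110 bp over all genes. Furin, the proprotein convertase that activates Adam and membrane Mmp proteins, had 10 clusters, and Lrp1, the receptor that clears proteinases, had 11. Bmp1, a procollagen C-proteinase, had 8 and its enhancer Pcolce had 6. Reck, a membrane inhibitor of metalloproteinases, had 1 cluster of 95 bp and Bsg, an inducer of them, had 1 of 182 bp. Rhbdf1 and Rhbdf2, which carry Adam17 to the cell surface, had 2 each. Of the plasminogen system, Plau had 2 clusters, Plaur 1 of 86 bp and Plat 1 of 89 bp. Adamtsl5 had 9 clusters, more than any Adamts gene. Plg, A2m, Adamdec1, Mep1a, Mep1b and Tll2 had no cluster under those names among those analysed here. What the span of a cluster reflects, and whether sequencing depth sets it, was not tested.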

How the data were processed

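CAGE libraries of 8 facial skin samples, 4 lesional and 4 control, were deposited by the authors as a table of tag clusters with position, strand and gene symbol. The submitters' processing notes name BWA and HISAT2 and build mm9, without versions; the rules of clustering and of gene assignment were not given in the sources used here. Whether starts count from 0 or 1 is not stated, so coordinates are as deposited. The 8 value columns match no sample label and were not used, so the planned tests between groups were not run and depth is not given.

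Positions were read with Python 3.11.15 and pandas 2.3.3, and rows of 1 position were counted once per gene. A gap is the distance between the end of a cluster and the start of the next on that strand; distant means at least 1000 bp. Counts of clusters, widest spans and gaps were tested on simulated data. Family membership, promoter sequences and GRCm38.p6 positions came from RefSeq; all 50 symbols matched and 33 had a promoter sequence (37 sequences). In GRCm38.p6, 10 of these 33 genes start within 1000 bp of a cluster, 8 of them the Mmp genes of chromosome 9, so the builds differ at most loci and no position was carried between them. Wilson intervals (95%), used to compare shares between settings, were computed with scipy 1.17.1. The members and lists were chosen with earlier results of these data known. Every gene of the rule was accounted for; genes set to be named whatever their values were Mmp2, Mmp3, Mmp8, Mmp9, Mmp10, Mmp13, Mmp14, Adam10, Adam17, Adamts1, Adamts4, Adamts5 and the Timp genes, along with those of the most, the widest or the distant clusters in each family. An item of the list of other pathway genes is not reported here. Alternatives were clusters of at least 10 bp, table rows, older symbols, other separations, windows and motif letters.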

Additional observations from a re-analysis of the deposited data

How the results depend on the processing

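Of 45 values recomputed under other settings, 37 stayed within 1.5 times the reported count or inside the interval of the reported share, and 26 were identical. With clusters of at least 10 bp alone, the members had 44 genes and 63 clusters in place of 50 and 107, with 22 clusters for Mmp, 13 for Adam, 24 for Adamts and 4 for Timp, and no gene had distant clusters (0). The genes lost were Mmp1a, Mmp8, Mmp20, Adam11, Adamts4 and Adamts8. With a separation of 500 bp, 2 genes had distant clusters, Adam15 and Timp1. The share of all protein-coding genes with a cluster moved from 63.3% to 57.2% with current symbols alone and to 59.9% with clusters of at least 10 bp, while that of the family stood at 62.5% and 55%. Counting rows or adding older symbols changed no count of members. Counting rows could not change the number of genes, and the search for older symbols added 0. Most of the 26 identical values came from these settings, so they say little about how stable the results are. Windows of 2000 and 10000 bp left 41 and 33 members without another cluster nearby. Searching 60 bases, or TATAAA, gave 7 and 6 members with the motif and 5 of the Mmp genes on chromosome 9 in both. Windows and motif letters were chosen after seeing the data. No paired analysis was possible because no column of values has a name that matches a sample. For the same reason the comparisons of lesional with control skin, their other normalizations, filters and pseudocounts, and the fits leaving out replicates were not run. Spans under 10 bp made up 41.1% of member clusters, and how far depth limits them was not analysed.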

Other observations

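Timp1, Timp3 and Timp4, but not Timp2, are known to lie inside introns of the synapsin genes, on the opposite strand. The catalogue placed Timp3 and Syn3 on opposite strands of chromosome 10, with the 5′ ends of their widest clusters 198.5 kb apart, and Syn3 had 1 cluster of 130 bp. Timp4 and Syn2 were on opposite strands of chromosome 6, 117.0 kb apart, and Syn2 had 2 clusters, the wider of 54 bp. Syn1, the host of Timp1, had no cluster under that name among those analysed here. Both synapsins are known mainly from neurons. From which cells their transcripts came was not tested.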
